A study of Homo sapiens with 8 samples.

Results

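Among the 25411 genes listed for each of 8 RNA-Seq libraries, 142 were above untreated cells in each library made during or after nickel exposure. A gene was taken as a member where the lowest of its 6 treated values was at least 0.5 RPKM and at least 1.5 times the larger of its 2 untreated values. RPKM is the number of reads of a gene scaled to transcript length and to library size. The lower limit of 0.5 RPKM alone was met by 11511 genes, and the 142 members made up 1.23% of these. The members were therefore chosen by their values against untreated cells. Those differences are given as a description, with calls against untreated cells counted once and not used, and test results are read only between the treated groups. The choice set no order among these groups. It did hold each treated value at or above 1.5 times the larger untreated value, which limits how far a member can fall between them. Counts of members that rise or fall between treated groups are therefore partly set by the choice.

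The cells were BEAS-2B, a line of human bronchial epithelium that grows without limit, and gene expression was measured with 2 libraries in each of 4 groups. Untreated cells (UT) were the control. Nickel-exposed cells (Ni-E) were harvested after 6 weeks in 100 µM NiCl2, a soluble nickel salt. Nickel-washed-out cells (Ni-W) had that exposure and were then kept nickel-free for more than 6 months, as a population raised from an individual colony, so that Ni-W stands for 1 clonal population and not for all exposed cells. The group HCl3 carried the treatment text of Ni-W, its labels gave no time without nickel, and they do not say whether it is another colony. All 4 groups share the parental line and its culture medium. In the labels, Ni-E belongs to experiment 2 and HCl3 to experiments 3 and 4, while UT and Ni-W carry no such number, so experiment and group cannot be told apart. Library totals ranged from 26383920 to 45692298 reads. Of the epithelial markers, KRT8, KRT18 and KRT7 were between 144 and 481 RPKM, EPCAM was between 0.95 and 1.79 RPKM, and CDH1 did not exceed 0.11 RPKM in any library. KRT19 did not exceed 0.02 RPKM in UT and Ni-E and was between 0.53 and 0.78 RPKM in Ni-W and HCl3, and KRT5 did not exceed 0.03 RPKM. The basal marker TP63 was at 0 in each library, and the secretory marker SCGB1A1 and the ciliated marker FOXJ1 did not exceed 0.08 and 0.01 RPKM. Of the markers of other cell types, CD3E (immune), EMCN (endothelial) and DCN (fibroblast) were at 0 in all 8 libraries. Others were well above 0 in each library, UT included. The immune list held CD68 at 14.3 to 21.8 RPKM and CD14 at 1.06 to 4.15 RPKM, and the fibroblast list held COL1A1 at 178 to 454, THY1 at 137 to 186 and PDGFRB at 10.6 to 27.9 RPKM. CD14 was between 1.06 and 1.96 RPKM in UT and Ni-E and between 2.84 and 4.15 RPKM in Ni-W and HCl3. The part of such cells or genes in the results was not tested.

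Nickel ions compete with iron at the active site of oxygenases that need iron and oxoglutarate. These enzymes include the hydroxylases that mark hypoxia-inducible factor for degradation and the demethylases that act on histones and DNA. Nickel-treated airway cells are known for hypoxia-type and stress responses while the metal is present, for changes of cell-cell junctions and matrix, and for expression changes that outlast the exposure. BEAS-2B cells carry a viral large T antigen, which binds p53, so the p53 pathway is not in its normal state in this line.

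Most members were weakly expressed in UT. The larger UT value had a median of 0.61 RPKM, against 11.9 RPKM over the 11511 genes, and 89 members did not exceed 1 RPKM in either UT library. The ratio of the lowest treated to the larger UT value had a median of 1.83 and reached 32.7. Ratios of group means to UT had medians of 2.4 for Ni-E, 3.17 for Ni-W and 3.42 for HCl3. At the limit of 1.5, NT5M with a ratio of 1.5 and HTRA1 with 1.51 lay just inside, and TUBA4A and ACSF2, each at 1.5 after rounding, just outside. At the RPKM limit, FBXO2 and LYPD3 were inside with a lowest value of 0.50, and RHOU with 0.48 and ADSSL1 with 0.47 were outside. A further 348 genes passed the ratio but not the RPKM limit. Of the genes the study named, DSP, its example of persistent upregulation from exposure on, was a member. ZEB1, cited from the authors' earlier work as persistently activated, was not because its ratio was 1.36. GATM, the study's example of transient upregulation, was not because its lowest treated value was 0.47 RPKM, although its ratio was 6.71.

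**Figure D1:**
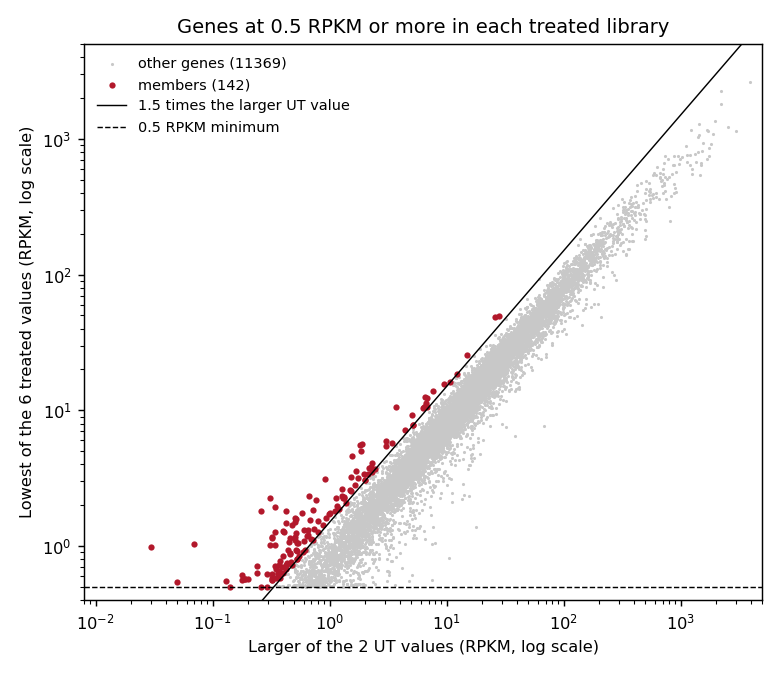
Lowest of the 6 treated values against the larger of the 2 UT values for the 11511 genes with at least 0.5 RPKM in each treated library, both in RPKM on log axes. The 142 members (red) lie on or above the solid line at 1.5 times the UT value, and 89 of them lie at or below 1 RPKM on the UT axis.

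The GC content of the longest transcript had a median of 54.7% over the members and 47.7% over the genes at the RPKM limit. When each library was cleared of its trends with GC content and transcript length, 89 of the 142 members still met the rule and 53 did not. The median GC content was 51.8% in the former and 57.2% in the latter. Without the first UT library 305 genes met the rule, and without the first Ni-E library 228 did. GC content and length were removed together, and the part of either in the membership was not tested. A member that no longer met the rule after this removal is named as such where it is described in detail, and NT5M, FBXO2 and LYPD3, named above at the limits of the rule, were such members. The ratio of NT5M fell to 1.03, while FBXO2 and LYPD3 kept ratios of 2.62 and 1.79 and fell below 0.5 RPKM.

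**Figure D2:**
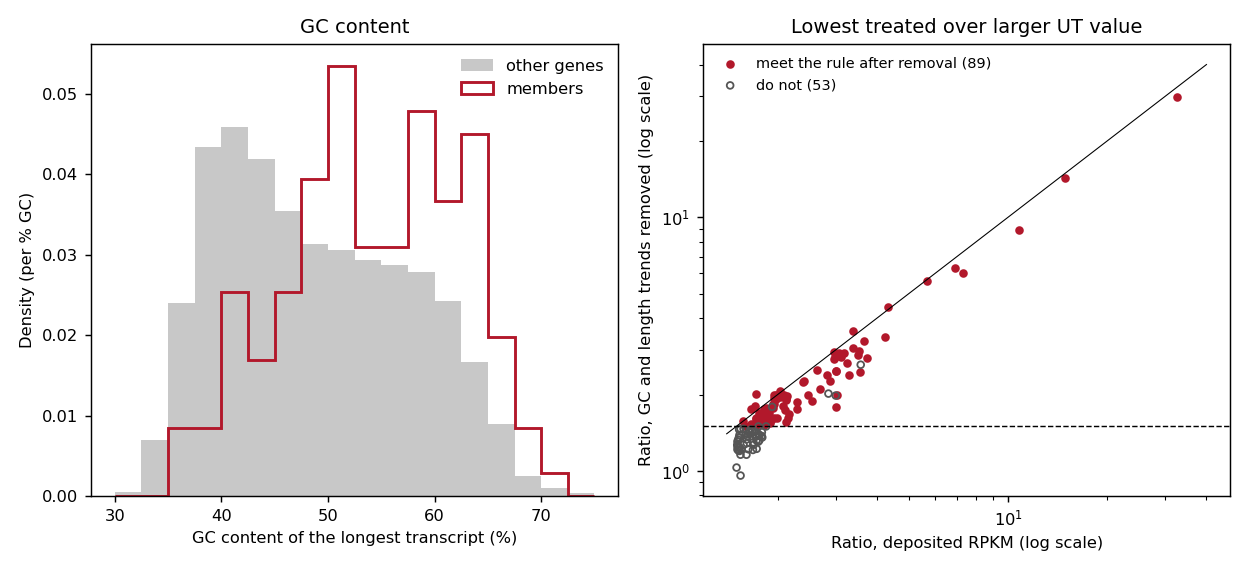
Left, GC content of the longest transcript in members (red line) and in the other genes with at least 0.5 RPKM in each treated library (grey), as densities. Right, ratio of the lowest treated to the larger UT value from the deposited RPKM and after removal of GC and length trends, on log axes; 89 members still met the rule (filled), and 53 did not (open), a few of which lie above the dashed line at 1.5 because they fell below 0.5 RPKM.

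The 10 members that stood farthest above UT, among those with a mean of at least 50 reads, were PDLIM3, PDPN, PPP1R14C, ANGPTL4, FAM89A, DSP, E2F5, COL13A1, GPRC5C and SLC22A17. All 10 still met the rule once the GC and length trends were taken out. PDLIM3, a PDZ and LIM domain protein of the actin cytoskeleton (hg19 chr4:186421815-186456712), was at 0.03 and 0.02 RPKM in UT, then 1.34 and 1.51 for Ni-E, 1.29 and 1.15 for Ni-W and 1.02 and 0.98 for HCl3. The UT values rest on 2 and 1 reads, and the ratio of 32.7 has a 95% counting interval (exact, conditional on the sum of reads) from 14.9 to 460. PDLIM3 was thus close to absent from the UT libraries and near 1 RPKM in each treated library. The 3 tests between treated groups did not call it, with log2 fold changes of -0.22 ± 0.29 (SE) for Ni-W against Ni-E, -0.53 ± 0.29 for HCl3 against Ni-E and -0.30 ± 0.28 for HCl3 against Ni-W. As in any bulk library, more cells with the transcript and more transcript per cell cannot be told apart.

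PDPN encodes podoplanin, a mucin-type membrane glycoprotein linked to the actin cytoskeleton (hg19 chr1:13911967-13944452). Its values were 0.07 and 0 RPKM in UT, from 6 and 0 reads. The ratio of its lowest treated to its larger UT value, 14.9, has a counting interval from 9.0 to 56.3. It was at 1.04 and 1.37 RPKM for Ni-E, 10.2 and 9.92 for Ni-W and 6.07 and 5.62 for HCl3. The 3 treated groups did not overlap, with Ni-E lowest and Ni-W highest. The log2 fold change was 3.08 ± 0.18 (SE) for Ni-W against Ni-E (DESeq2 adjusted p = 1.10e-63), and -0.80 ± 0.12 for HCl3 against Ni-W (DESeq2 adjusted p = 1.35e-09). PPP1R14C, an inhibitor of protein phosphatase 1 (hg19 chr6:150464188-150571528), ran the other way. It was at 0.02 and 0.05 RPKM in UT, then 3.68 and 3.01 for Ni-E, 0.54 and 0.64 for Ni-W and 0.83 and 0.76 for HCl3. Its UT values rest on 2 and 3 reads, and its ratio of 10.8 has a counting interval from 3.90 to 59.4. Both washed-out groups lay below Ni-E but above UT, and the log2 fold change against Ni-E was -2.51 ± 0.29 (SE) in Ni-W and -2.09 ± 0.27 in HCl3 (DESeq2 adjusted p = 4.69e-16 and 6.13e-13).

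ANGPTL4, a secreted inhibitor of lipoprotein lipase and a hypoxia-inducible gene (hg19 chr19:8429011-8439259), was at 0.31 and 0.25 RPKM in UT, then 8.88 and 2.26 for Ni-E, 3.73 and 2.97 for Ni-W and 12.9 and 13.4 for HCl3. The first Ni-E library was well above the second, Ni-W lay between them, and both HCl3 libraries were above all others. HCl3 exceeded Ni-W by 1.95 ± 0.15 on the log2 scale (DESeq2 adjusted p = 1.02e-35), a call that was lost when all 8 libraries shared 1 estimate of spread (DESeq2 adjusted p = 0.0556). DESeq2 called neither washed-out group against Ni-E, while edgeR called HCl3 above Ni-E (log2 fold change 1.21, edgeR adjusted p = 0.0437). FAM89A, in contrast, hardly varied among the treated libraries, from 1.80 to 2.33 RPKM, against 0.26 and 0.21 RPKM in UT. E2F5, an E2F family transcription factor, was at 0.42 and 0.31 RPKM in UT and between 1.82 and 2.84 RPKM in the treated libraries, and it too was called in none of the 3 tests.

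The promoters of the 4 members that lead this order by ratio are shown from 250 bases before to 50 after the RefSeq start (GRCh38.p14, strand of the gene). None of the 4 exceeded 0.31 RPKM in UT. Capitals mark hypoxia response cores (ACGTG or GCGTG) and metal response cores (TGCACNC or TGCGCNC) on either strand. The regions are chr4:185535458-185535757 on the minus strand for PDLIM3, and on the plus strand chr1:13583507-13583806 for PDPN, chr6:150142794-150143093 for PPP1R14C and chr19:8363905-8364204 for ANGPTL4.
PDLIM3: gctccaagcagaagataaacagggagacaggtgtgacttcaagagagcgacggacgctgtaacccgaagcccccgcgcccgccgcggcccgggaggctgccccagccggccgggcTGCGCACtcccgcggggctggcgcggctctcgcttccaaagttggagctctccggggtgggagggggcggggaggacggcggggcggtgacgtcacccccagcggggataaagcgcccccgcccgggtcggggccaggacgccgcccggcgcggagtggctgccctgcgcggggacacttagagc
PDPN: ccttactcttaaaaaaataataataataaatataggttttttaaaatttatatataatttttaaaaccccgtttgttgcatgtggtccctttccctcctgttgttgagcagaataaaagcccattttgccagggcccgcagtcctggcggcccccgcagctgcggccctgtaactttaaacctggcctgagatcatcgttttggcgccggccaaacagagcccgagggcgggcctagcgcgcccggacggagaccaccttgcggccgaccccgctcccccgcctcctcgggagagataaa
PPP1R14C: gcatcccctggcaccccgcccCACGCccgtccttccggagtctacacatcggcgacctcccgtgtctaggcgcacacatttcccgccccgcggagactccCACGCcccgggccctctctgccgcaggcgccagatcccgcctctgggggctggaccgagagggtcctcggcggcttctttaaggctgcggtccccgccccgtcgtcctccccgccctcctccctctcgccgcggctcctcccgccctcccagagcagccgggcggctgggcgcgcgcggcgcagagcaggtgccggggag
ANGPTL4: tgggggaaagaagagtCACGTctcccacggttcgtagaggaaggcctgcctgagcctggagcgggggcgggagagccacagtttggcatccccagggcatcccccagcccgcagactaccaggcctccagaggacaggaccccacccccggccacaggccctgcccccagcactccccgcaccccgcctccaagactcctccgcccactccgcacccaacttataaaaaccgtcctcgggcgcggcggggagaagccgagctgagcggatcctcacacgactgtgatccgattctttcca
PDLIM3 held 1 metal core, PPP1R14C held 2 hypoxia cores, ANGPTL4 held 1 hypoxia core and PDPN held none of these letters. A match of so few letters is common and describes the sequence only. Over the members, 108 had a promoter in the RefSeq table. A hypoxia core was found in 49.1% of these, in 64.8% of the 9481 promoters of genes at the RPKM limit and in 48.4% of all 27305 promoters. The metal core was found in 38.0, 39.7 and 29.3%. The number of CpG in these 300 bases had a median of 29 in the members, 27 in genes at the limit and 14 over all promoters. The AP-1 site (TGACTCA or TGAGTCA) was in 6.48, 2.86 and 4.92%, the ZEB-type E-box (CACCTG) in 27.8, 17.5 and 20.6%, and the ETS core (CCGGAAG) in 6.48, 20.9 and 10.7%. The GC box (GGGCGG) was in 76.9, 72.4 and 44.6%, the TATA box (TATAAA) in 7.41, 4.89 and 12%, the NFY box (CCAAT) in 25.9, 37.2 and 35.7%, the TEAD site (GGAATG) in 6.48, 10.6 and 14%, and the CREB core (TGACGT) in 8.33, 12.2 and 8.32%. Both strands were searched. These shares are given without a test.

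**Figure D3:**
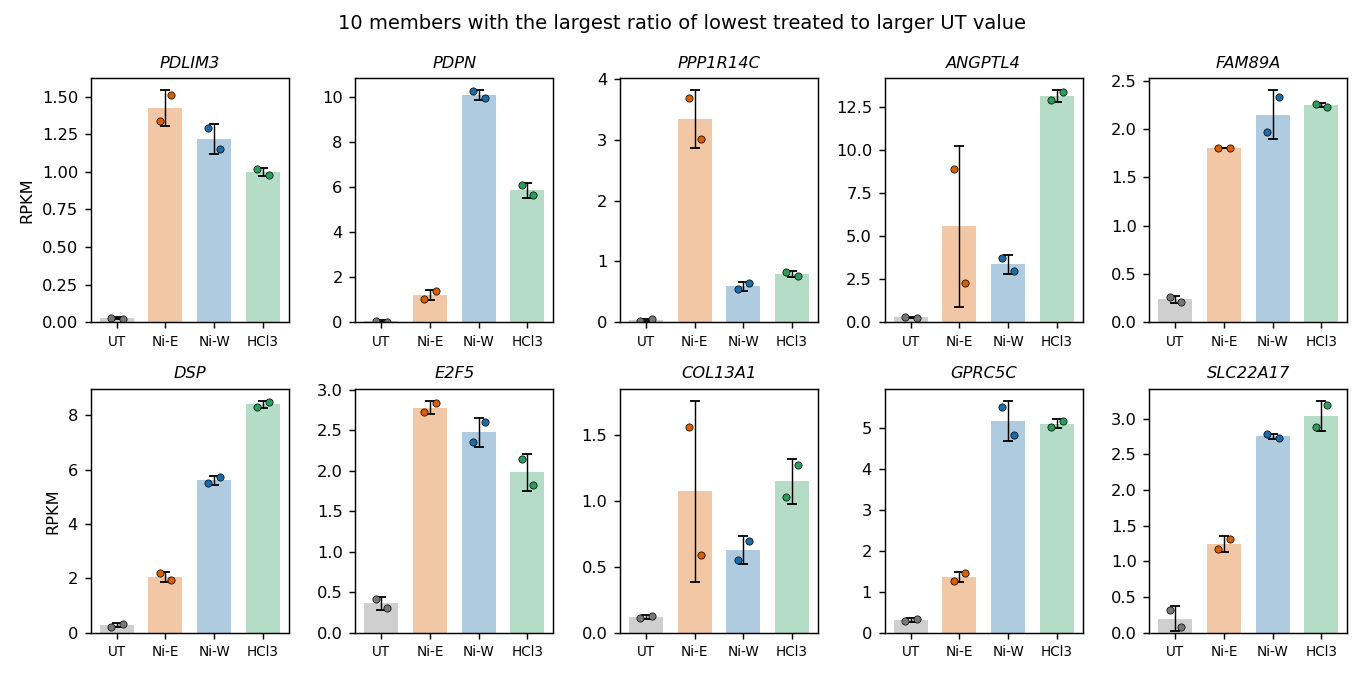
RPKM of the 10 members with the largest ratio of lowest treated to larger UT value, 1 panel per gene with its own linear axis from 0. Points are the 2 libraries of a group, bars the mean and error lines the SD; PPP1R14C is highest in Ni-E, PDPN in Ni-W and ANGPTL4 in HCl3, while FAM89A and E2F5 are nearly level across the treated groups.

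The remaining leading members were more strongly expressed after wash-out than during exposure, with COL13A1 as an exception. DSP, the desmoplakin that ties desmosomes to keratin filaments, was at 0.23 and 0.34 RPKM in UT, then 2.19 and 1.93 for Ni-E, 5.49 and 5.72 for Ni-W and 8.31 and 8.49 for HCl3. The 4 groups did not overlap. Ni-W was above Ni-E by 1.45 ± 0.13 (SE) on the log2 scale and HCl3 by 1.98 ± 0.11 (DESeq2 adjusted p = 7.94e-28 and 7.89e-68), and the difference between HCl3 and Ni-W, 0.54 ± 0.09, stayed under 1.5-fold. GPRC5C, an orphan G-protein-coupled receptor induced by retinoic acid, was at 0.28 and 0.34 RPKM in UT, then 1.27 and 1.45 for Ni-E, 5.52 and 4.83 for Ni-W and 5.03 and 5.18 for HCl3. Its log2 fold change was 1.94 ± 0.22 for Ni-W against Ni-E and 1.88 ± 0.21 for HCl3 against Ni-E (DESeq2 adjusted p = 1.97e-17 and 2.45e-17). The values of SLC22A17, a receptor for the iron-binding protein lipocalin, were 0.32 and 0.08 RPKM in UT, then 1.17 and 1.32 for Ni-E, 2.78 and 2.73 for Ni-W and 2.89 and 3.19 for HCl3. It was higher than in Ni-E by 1.18 ± 0.27 in Ni-W and 1.30 ± 0.26 in HCl3 on the log2 scale (DESeq2 adjusted p = 5.80e-05 and 3.53e-06), and the former call was lost without the first Ni-W library (adjusted p = 0.069). COL13A1, a collagen that spans the cell membrane, was at 0.11 and 0.13 RPKM in UT, then 1.56 and 0.59 for Ni-E, 0.55 and 0.70 for Ni-W and 1.03 and 1.27 for HCl3. Its Ni-E libraries were as far apart as the groups, and its call of HCl3 above Ni-W, 0.90 ± 0.31 on the log2 scale (DESeq2 adjusted p = 0.0278), was lost under 7 of 11 alternatives.

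Between exposure and wash-out the members spread out, mostly upwards. In Ni-W against Ni-E, 39 members were called higher and 8 lower (DESeq2, adjusted p under 0.05 and at least 1.5-fold), where 11.7% of all tested genes were called higher and 8.81% lower. Over the genes at the RPKM limit those shares were 9.38 and 10.3%, against 27.5 and 5.63% of the members. In HCl3 against Ni-E, 45 members were called higher and 8 lower, with 10.4 and 6.78% of all tested genes and 8.07 and 8.04% of genes at the limit. HCl3 against Ni-W gave 17 higher and 8 lower, with 3.1 and 1.66% of all tested genes and 2.47 and 0.791% of genes at the limit. The first 2 comparisons share the Ni-E libraries. The median log2 fold change of the members was 0.25, 0.33 and 0.08 in these comparisons, and that of the genes at the limit was -0.04, -0.05 and -0.00. The rule was applied to the same libraries, so these shares describe the members and are no test of them. Against UT, the contrast that chose them, 110 members were called higher for Ni-E, 134 for Ni-W and 137 for HCl3, where 3.75, 10.9 and 11.1% of all tested genes and 3.48, 8.06 and 8.34% of genes at the limit were called higher. No member was called lower, where 2.05, 4.83 and 3.74% of all tested genes and 2.03, 5.76 and 4.55% of genes at the limit were. Nothing is read from these counts, which the rule fixed.

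In 66 members, 46.5%, all 4 washed-out libraries were above both Ni-E libraries, which held for 27% of the genes at the RPKM limit. In 13 members all 4 were below, 9.15% against 34.7%. The rule set a minimum for each of these libraries, so these shares too describe the members and are no test of them. The lowest treated value was a Ni-E value for 85 members, a Ni-W value for 38 and an HCl3 value for 19, which is 59.9, 26.8 and 13.4% of the members against 38.7, 36.9 and 24.4% of the genes at the limit. By group means, 45 members ran from Ni-E through Ni-W to HCl3, 36 from Ni-E through HCl3 to Ni-W, and 27 from Ni-W through Ni-E to HCl3. A further 14 ran from Ni-W through HCl3 to Ni-E, 13 from HCl3 through Ni-W to Ni-E, and 7 from HCl3 through Ni-E to Ni-W. The Ni-E libraries differed from each other by more than 1.5-fold in 18 members, 12.7% against 3.08% of the genes at the limit, and the UT libraries in 15 of the 141 members with a value above 0 in both, 10.6% against 3.33%. The Ni-W and HCl3 libraries did so in 5 and 1 members, 3.52 and 0.704% against 1.52 and 0.99%.

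**Figure D4:**
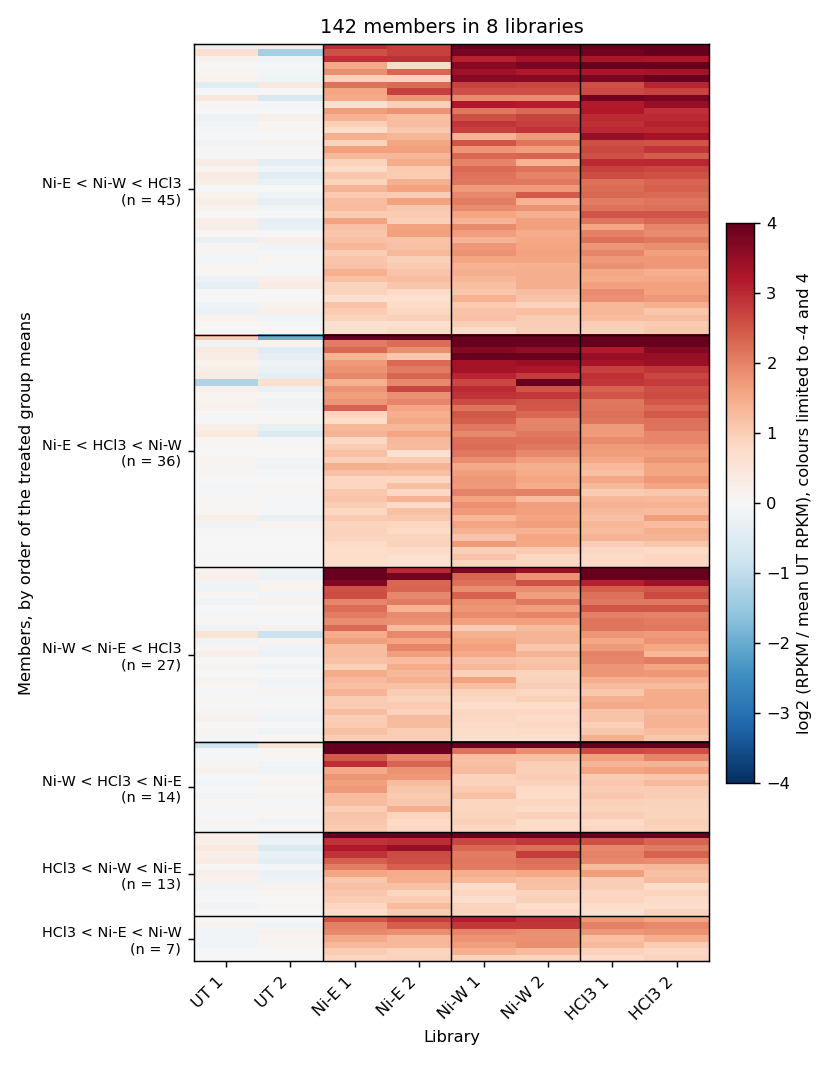
Level of the 142 members in the 8 libraries as log2 of RPKM over the mean UT RPKM. Members are grouped by the order of their treated group means and, within a group, by their mean; the 2 largest groups, with 45 and 36 members, have Ni-E lowest.

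**Figure D5:**
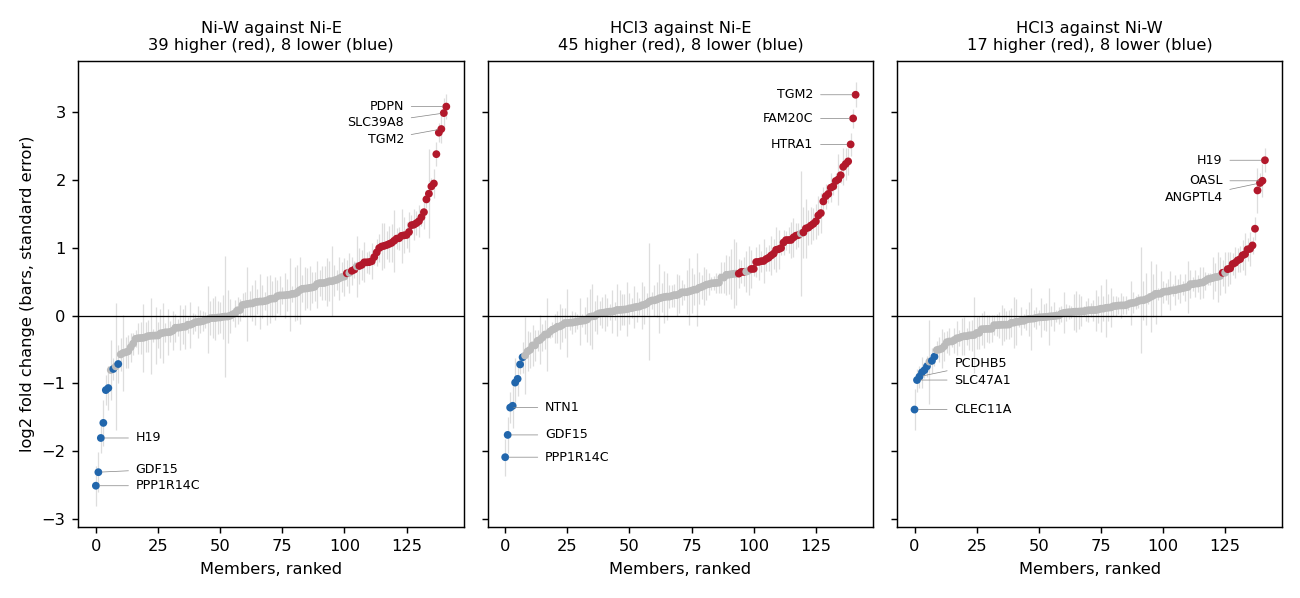
Log2 fold changes of the 142 members between the treated groups, ranked in each panel, with standard errors as bars. Red and blue points were called higher and lower by DESeq2 (39 and 8, 45 and 8, and 17 and 8), and the 3 most extreme called members at each end are named.

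For an account by function, 103 members were sorted into 15 groups of known role. These groups were formed after the values had been seen and carry no test of their own. The largest, with 13 members, were matrix proteins and enzymes that modify the matrix. Of these, 8 were called higher and 1 lower in Ni-W against Ni-E, and the same numbers in HCl3 against Ni-E. TGM2, the transglutaminase that crosslinks matrix proteins, was at 0.35 and 0.33 RPKM in UT, then 0.98 and 0.58 for Ni-E, 4.27 and 4.69 for Ni-W and 6.62 and 6.14 for HCl3. Ni-E was nearer to UT than to either washed-out group, and both of these were above it, by 2.75 ± 0.21 (SE) in Ni-W and 3.25 ± 0.19 in HCl3 on the log2 scale (DESeq2 adjusted p = 6.84e-36 and 5.03e-65). FAM20C, a kinase that phosphorylates secreted proteins, was at 1.31 and 1.06 RPKM in UT, then 2.31 and 2.26 for Ni-E, 14.7 and 14.8 for Ni-W and 16.2 and 18.3 for HCl3. HTRA1, a secreted serine protease, was at 1.38 and 1.31 RPKM in UT, then 2.08 and 2.63 for Ni-E, 12.5 and 11.8 for Ni-W and 12.2 and 15.0 for HCl3. The log2 fold change of FAM20C against Ni-E was 2.69 ± 0.14 in Ni-W and 2.90 ± 0.14 in HCl3, and that of HTRA1 was 2.38 ± 0.17 and 2.52 ± 0.17 (DESeq2 adjusted p = 4.80e-75, 5.92e-94, 4.65e-41 and 8.38e-46). TGM2, FAM20C and HTRA1 did not meet the rule once the GC and length trends were taken out, with ratios of 1.46, 1.37 and 1.27 to UT, while their differences between wash-out and exposure kept their calls.

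EFEMP1 and IGFBP7 had the highest levels of the matrix members in the washed-out groups. EFEMP1, the matrix glycoprotein fibulin-3, was at 6.17 and 6.79 RPKM in UT, then 10.7 and 13.8 for Ni-E, 43.1 and 47.9 for Ni-W and 52.0 and 51.2 for HCl3. IGFBP7, a secreted protein that binds insulin-like growth factors and matrix, was at 5.97 and 6.82 RPKM in UT, then 12.4 and 15.0 for Ni-E, 46.0 and 43.1 for Ni-W and 48.9 and 54.2 for HCl3. In both genes Ni-E lay between UT and the washed-out groups without overlap. The log2 fold change of EFEMP1 against Ni-E was 1.90 ± 0.12 in Ni-W and 2.07 ± 0.11 in HCl3, and that of IGFBP7 was 1.71 ± 0.13 and 1.90 ± 0.12 (DESeq2 adjusted p = 5.48e-51, 3.79e-79, 5.63e-36 and 2.67e-50). LAMB3, a chain of the basement membrane laminin of epithelia, was at 6.72 and 6.11 RPKM in UT, then 12.6 and 10.9 for Ni-E, 22.5 and 20.3 for Ni-W and 16.6 and 16.9 for HCl3, and was called in Ni-W against Ni-E (0.86 ± 0.12, DESeq2 adjusted p = 6.89e-12). LOXL1, an oxidase that crosslinks elastin, took another course, at 1.82 and 1.72 RPKM in UT, then 5.52 and 5.52 for Ni-E, 6.06 and 5.58 for Ni-W and 11.2 and 12.9 for HCl3. HCl3 alone stood apart among the treated groups, by 1.03 ± 0.13 over Ni-W (DESeq2 adjusted p = 2.42e-13). The member called lower was NTN1, the guidance factor netrin-1, at 0.20 and 0.10 RPKM in UT, then 1.37 and 1.69 for Ni-E, 0.73 and 0.69 for Ni-W and 0.57 and 0.64 for HCl3. It was below Ni-E by -1.10 ± 0.22 in Ni-W and -1.36 ± 0.23 in HCl3 (DESeq2 adjusted p = 8.05e-06 and 3.42e-08). LAMB3 did not meet the rule once the trends were taken out, with a ratio of 1.37 to UT. NTN1 kept a ratio of 2.02 and missed the rule only because it fell below 0.5 RPKM.

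Integrins and cell-surface adhesion proteins made up 9 members. Besides PDPN, they included ITGB3, the integrin subunit beta 3, which was at 0.43 and 0.45 RPKM in UT, then 1.08 and 1.10 for Ni-E, 2.15 and 2.19 for Ni-W and 2.64 and 2.35 for HCl3. It was higher than in Ni-E by 0.99 ± 0.20 (SE) in Ni-W and 1.18 ± 0.19 in HCl3 on the log2 scale (DESeq2 adjusted p = 6.56e-06 and 1.43e-08). ITGB5, the integrin subunit beta 5, and MCAM, an adhesion molecule of the immunoglobulin family, differed less among treated cells. ITGB5 was at 8.46 and 9.55 RPKM in UT and between 15.6 and 18.4 in the treated libraries. MCAM was at 28.0 and 26.7 RPKM in UT, then 64.2 and 57.5 for Ni-E, 49.3 and 49.5 for Ni-W and 52.8 and 51.5 for HCl3, the highest UT level of any member. All 4 washed-out libraries of MCAM were below both Ni-E libraries. Neither ITGB5 nor MCAM was called between treated groups, and neither met the rule once the GC and length trends were taken out. The clustered protocadherin PCDHB5 was at 0.66 and 0.57 RPKM in UT, then 2.5 and 3.29 for Ni-E, 4.41 and 4.46 for Ni-W and 2.49 and 2.32 for HCl3. HCl3 was below Ni-W by -0.90 ± 0.16 (DESeq2 adjusted p = 1.35e-06). Its neighbour PCDHB2 was also called lower in that comparison, at -0.84 ± 0.23 (DESeq2 adjusted p = 0.00295). Protocadherin genes of this cluster are similar in sequence, and reads with several alignments had been removed, so their values are uncertain.

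SLC39A8, the importer ZIP8 for zinc, manganese and cadmium, was at 0.36 and 0.23 RPKM in UT, then 0.75 and 0.62 for Ni-E, 5.98 and 5.13 for Ni-W and 3.32 and 3.31 for HCl3. The treated groups did not overlap, and the level during exposure was nearer to UT than to either washed-out group. The log2 fold change was 2.98 ± 0.22 (SE) for Ni-W against Ni-E, 2.23 ± 0.24 for HCl3 against Ni-E and -0.75 ± 0.16 for HCl3 against Ni-W (DESeq2 adjusted p = 7.84e-38, 4.37e-19 and 4.93e-05), and the last call was lost without the first Ni-W or the first HCl3 library (highest adjusted p = 0.0804). The other 2 members that bind or carry metal were called in no comparison. MT1F, a metallothionein, was at 1.82 and 2.00 RPKM in UT, then 3.82 and 3.80 for Ni-E, 3.13 and 3.06 for Ni-W and 5.17 and 4.11 for HCl3. It did not meet the rule after removal of the trends, and metallothionein genes are similar enough to share reads. SLC30A3, a zinc exporter into vesicles, was between 1.05 and 1.77 RPKM in the treated libraries, against 0.54 and 0.28 in UT.

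Of the 8 channels and other solute transporters, 6 were called higher in Ni-W and 4 in HCl3 against Ni-E. Over all members the shares called higher were 27.5 and 31.7%. None was called lower by DESeq2 or edgeR, with 0 also at an unadjusted p under 0.05. As 5.63% of all members were called lower in each comparison, none among 8 says little about this group. SLC47A1, an exporter of organic cations, was at 0.87 and 0.94 RPKM in UT, then 1.90 and 1.61 for Ni-E, 3.57 and 3.62 for Ni-W and 1.84 and 1.92 for HCl3. Only Ni-W stood apart among the treated groups. HCl3 was lower than Ni-W by -0.95 ± 0.17 (SE) on the log2 scale, and Ni-W higher than Ni-E by 1.04 ± 0.20 (DESeq2 adjusted p = 9.78e-07 and 2.08e-06). KCNAB2, an auxiliary subunit of potassium channels, was at 0.51 and 0.36 RPKM in UT, then 1.51 and 1.83 for Ni-E, 4.41 and 4.08 for Ni-W and 2.91 and 3.13 for HCl3. It was above Ni-E by 1.36 ± 0.18 in Ni-W and 0.85 ± 0.19 in HCl3 (DESeq2 adjusted p = 7.94e-13 and 4.07e-05).

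Contractile and cytoskeletal genes made up 11 members, among them PDLIM3 and PPP1R14C. ACTA2, the smooth muscle actin, was at 0.48 and 0.42 RPKM in UT, then 2.72 and 1.71 for Ni-E, 2.29 and 1.44 for Ni-W and 2.08 and 2.79 for HCl3. The treated groups overlapped and none of the 3 tests called it. ACTA2 overlaps FAS on the opposite strand, and the sources do not say whether counting used strand, so reads of these genes may be mixed. FSCN1, which bundles actin filaments, was at 6.58 and 5.25 RPKM in UT, then 14.3 and 12.5 for Ni-E, 22.0 and 20.7 for Ni-W and 26.7 and 27.2 for HCl3. It was above Ni-E by 0.68 ± 0.12 (SE) in Ni-W and 0.99 ± 0.11 in HCl3 on the log2 scale (DESeq2 adjusted p = 2.35e-07 and 1.68e-18). Of the fibroblast and smooth muscle markers, 4 of 12 reached 0.5 RPKM in each treated library. Their summed level was between 514.6 and 580.6 RPKM in UT, then 328.0 and 503.0 for Ni-E, 400.9 and 414.4 for Ni-W and 643.0 and 672.7 for HCl3, with COL1A1 and THY1 well expressed in UT as well. Their part in these values was not tested.

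Junction, keratin and epithelial genes were 4 members. KRT17, a keratin of basal and injured epithelia, was at 3.47 and 3.69 RPKM in UT, then 10.7 and 23.9 for Ni-E, 21.2 and 21.3 for Ni-W and 22.2 and 23.1 for HCl3. The second Ni-E library was at the level of the washed-out cells and the first was not, and no test called it. FOXA1, a pioneer transcription factor of epithelia, was at 0.28 and 0.38 RPKM in UT and between 0.58 and 0.83 in the treated libraries, and did not meet the rule after removal of the trends. SPINT2, an inhibitor of serine proteases at epithelial surfaces, was at 1.28 and 1.07 RPKM in UT, then 2.95 and 2.65 for Ni-E, 3.88 and 3.52 for Ni-W and 4.03 and 4.27 for HCl3. DSP was the 1 member of this group called between treated groups by DESeq2.

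Growth arrest and p53-linked genes made up 7 members. In Ni-W and in HCl3 against Ni-E, 3 were called lower by DESeq2, where 5.63% of all members were called lower in each. None was called higher by DESeq2 or edgeR, with 0 also at an unadjusted p under 0.05. Of all members, 27.5 and 31.7% were called higher in these comparisons. The median log2 fold change of the 7 was -0.53 for Ni-W and -0.44 for HCl3. CDKN1A, the cyclin-dependent kinase inhibitor p21, was at 25.9 and 22.9 RPKM in UT, then 189 and 123 for Ni-E, 55.8 and 48.7 for Ni-W and 62.8 and 63.0 for HCl3. The first Ni-E value was the highest of any member in any library, and wash-out left it below Ni-E but above UT in each library. The log2 fold change against Ni-E was -1.58 ± 0.34 (SE) in Ni-W and -1.33 ± 0.33 in HCl3 (DESeq2 adjusted p = 2.25e-05 and 0.000255), and the latter call was lost without either HCl3 library (highest adjusted p = 0.0871). GDF15, a cytokine released under stress, was at 0.39 and 0.42 RPKM in UT, then 10.3 and 6.17 for Ni-E, 1.83 and 1.48 for Ni-W and 2.53 and 2.4 for HCl3. BTG2, an antiproliferative factor, was at 2.04 and 2.28 RPKM in UT, then 7.40 and 7.22 for Ni-E, 4.08 and 4.37 for Ni-W and 4.38 and 4.58 for HCl3. GDF15 was below Ni-E by -2.31 ± 0.29 in Ni-W and -1.76 ± 0.27 in HCl3, and BTG2 by -0.79 ± 0.16 and -0.72 ± 0.15 (DESeq2 adjusted p = 8.21e-14, 1.33e-09, 3.77e-06 and 7.92e-06).

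The other 4 of these genes were called in no comparison between treated groups. DDB2, which recognises UV damage in DNA, was at 5.05 and 4.45 RPKM in UT and between 9.31 and 11.4 in the treated libraries. FAS, a death receptor, was at 1.30 and 1.33 RPKM in UT, then 4.25 and 2.81 for Ni-E, 2.69 and 2.28 for Ni-W and 2.64 and 2.64 for HCl3. PHLDA3, an inhibitor of AKT signalling, was at 10.7 and 8.96 RPKM in UT and between 16.2 and 21.2 in the treated libraries, and PERP, a desmosomal p53 target, at 7.37 and 7.70 and between 13.9 and 16.7. BTG2 and PHLDA3 did not meet the rule after removal of the trends.

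Hypoxia-linked genes were 5 members, of which 3 were called higher in HCl3 against Ni-E and 1 in Ni-W against Ni-E. ALDOC, an aldolase of glycolysis, was at 1.99 and 1.23 RPKM in UT, then 3.07 and 4.52 for Ni-E, 6.27 and 4.21 for Ni-W and 12.7 and 13.2 for HCl3. Ni-E and Ni-W overlapped and HCl3 was above both, by 1.76 ± 0.18 (SE) against Ni-E and 1.28 ± 0.17 against Ni-W on the log2 scale (DESeq2 adjusted p = 4.34e-20 and 7.08e-12). Its ratio to UT after removal of the trends was 1.46. PGF, a growth factor of the VEGF family, was the member called lower in Ni-W, at 0.46 and 0.51 RPKM in UT, then 2.64 and 1.91 for Ni-E, 1.10 and 1.10 for Ni-W and 1.51 and 1.86 for HCl3 (-1.07 ± 0.32, DESeq2 adjusted p = 0.00342). AK4, a mitochondrial adenylate kinase, and MIR210HG, the host transcript of a hypoxia-induced microRNA, were highest in HCl3, at up to 10.2 and 2.31 RPKM against at most 3.03 and 0.47 in UT, and MIR210HG, like ALDOC, did not meet the rule once the trends were taken out.

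Of the 4 interferon-linked members, DESeq2 called 2 higher in HCl3 against Ni-E and the same 2 in HCl3 against Ni-W. In Ni-W against Ni-E it called none in either direction, as did edgeR, with 0 at an unadjusted p under 0.05. OASL, an oligoadenylate synthetase-like antiviral protein, was at 0.34 and 0.16 RPKM in UT, then 0.71 and 0.85 for Ni-E, 0.93 and 0.93 for Ni-W and 3.65 and 3.43 for HCl3. IFI44, an interferon-induced protein, was at 0.52 and 0.53 RPKM in UT, then 1.05 and 1.08 for Ni-E, 1.56 and 1.41 for Ni-W and 2.98 and 2.98 for HCl3. Both stood higher in HCl3 than in the other treated groups without overlap. HCl3 exceeded Ni-W by 1.98 ± 0.24 (SE) for OASL and 0.98 ± 0.25 for IFI44 on the log2 scale (DESeq2 adjusted p = 3.01e-14 and 0.00118). This call of IFI44 was lost without the second Ni-W library or without either HCl3 library (highest adjusted p = 0.228). ISG20, an exonuclease that degrades viral RNA, was at 0.79 and 0.53 RPKM in UT, then 1.54 and 2.02 for Ni-E, 2.72 and 1.74 for Ni-W and 2.74 and 2.94 for HCl3. It was not called by DESeq2, while edgeR called HCl3 above Ni-E (log2 fold change 0.65, edgeR adjusted p = 0.0294). TRIM22, an antiviral ubiquitin ligase, was between 3.23 and 4.47 RPKM in the treated libraries, against 1.52 and 1.42 in UT. All 4 still met the rule after removal of the trends.

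Secreted growth factors, cytokines and their binding proteins were 8 members. GAS6, the ligand of the AXL family of receptors, was at 14.9 and 14 RPKM in UT, then 29.3 and 27.0 for Ni-E, 25.7 and 28.0 for Ni-W and 38.5 and 40.5 for HCl3. HCl3 was highest, but its differences of 0.47 ± 0.10 (SE) from Ni-E and 0.54 ± 0.09 from Ni-W on the log2 scale were under 1.5-fold. CLEC11A, a secreted C-type lectin that acts on blood and bone progenitors, was at 0.34 and 0.34 RPKM in UT, then 1.93 and 2.29 for Ni-E, 2.98 and 2.55 for Ni-W and 1.12 and 1.02 for HCl3. HCl3 was lower than Ni-W by -1.38 ± 0.30 (DESeq2 adjusted p = 9.77e-05), a call that was lost without the first Ni-W or the second HCl3 library (highest adjusted p = 0.0834). TGFA, a ligand of the EGF receptor, was at 0.24 and 0.24 RPKM in UT, then 1.14 and 0.63 for Ni-E, 0.81 and 0.77 for Ni-W and 1.36 and 1.37 for HCl3. IL1A, the alarm cytokine interleukin-1 alpha, was at 0.99 and 0.80 RPKM in UT, then 2.56 and 3.14 for Ni-E, 2.16 and 1.73 for Ni-W and 2.68 and 2.79 for HCl3, with no call. The call of TGFA in HCl3 above Ni-W, 0.78 ± 0.23 on the log2 scale (DESeq2 adjusted p = 0.00652), was lost under 7 of 11 alternatives. GAS6 and IL1A did not meet the rule after removal of the trends.

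Transcription and chromatin factors were 8 members, with 3 called higher in Ni-W and 3 in HCl3 against Ni-E. Over all members the shares called higher were 27.5 and 31.7%. None was called lower by DESeq2 or edgeR, with 0 also at an unadjusted p under 0.05. With 5.63% of all members called lower in each comparison, none among 8 says little about these factors. SNAI2, the mesenchymal repressor Slug, was at 0.32 and 0.26 RPKM in UT, then 0.60 and 0.58 for Ni-E, 1.10 and 1.58 for Ni-W and 1.42 and 1.38 for HCl3. It was above Ni-E by 1.17 ± 0.39 (SE) in Ni-W and 1.22 ± 0.37 in HCl3 on the log2 scale (DESeq2 adjusted p = 0.00951 and 0.00371), and these calls were lost under 7 of 12 and 3 of 11 alternatives. H2AFY2, a macroH2A histone, was at 1.55 and 1.37 RPKM in UT, then 4.61 and 5.16 for Ni-E, 10.9 and 10.45 for Ni-W and 8.27 and 8.90 for HCl3. Its log2 fold change against Ni-E was 1.13 ± 0.15 in Ni-W and 0.80 ± 0.15 in HCl3 (DESeq2 adjusted p = 2.90e-12 and 2.09e-06). SMARCD3, a subunit of SWI/SNF remodelling complexes, was at 1.68 and 1.49 RPKM in UT, then 3.55 and 3.62 for Ni-E, 5.09 and 4.44 for Ni-W and 3.65 and 4.77 for HCl3, without a call. Of the 3 long non-coding RNAs, H19, an imprinted transcript, was at 0.52 and 0.39 RPKM in UT, then 7.26 and 6.43 for Ni-E, 2.30 and 1.58 for Ni-W and 9.06 and 10.3 for HCl3. Ni-W was the lowest treated group and HCl3 the highest, with no overlap. Ni-W was below Ni-E by -1.80 ± 0.21 and HCl3 above Ni-W by 2.29 ± 0.18 (DESeq2 adjusted p = 1.32e-15 and 1.13e-35).

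The remaining role groups were receptors and G-protein signalling with 9 members, kinase and calmodulin signalling with 6, and glycan-modifying enzymes with 5. The first gave 2 members called higher against Ni-E in each washed-out group, GPRC5C and BAI2, an adhesion G-protein-coupled receptor that did not meet the rule once the trends were taken out. CDK18, a cyclin-dependent kinase, was at 2.30 and 2.00 RPKM in UT, then 3.67 and 4.42 for Ni-E, 10.4 and 9.79 for Ni-W and 14.3 and 13.8 for HCl3. It was above Ni-E by 1.33 ± 0.15 (SE) in Ni-W and 1.79 ± 0.13 in HCl3 on the log2 scale (DESeq2 adjusted p = 3.57e-18 and 1.12e-41). Only 1 of the 6 members of its group, CDK18 itself, still met the rule after removal of the trends. Of the others, CAMK2B kept a ratio of 1.98 and fell below 0.5 RPKM. The glycan enzymes, among them the sialyltransferases ST3GAL1 and ST6GAL1, were called in no comparison between treated groups. At an unadjusted p under 0.05, 1 of the 5 was higher and 1 lower in Ni-W against Ni-E, and edgeR called none. They were between 0.93 and 2.85 RPKM in the treated libraries. A further 39 members were placed in no role group. Of these, 8 were called higher in Ni-W against Ni-E and none lower (DESeq2, with 1 lower at an unadjusted p under 0.05 and 0 by edgeR), 11 higher and 1 lower in HCl3 against Ni-E, and 3 higher and 2 lower in HCl3 against Ni-W. Among the last was ECSCR, a surface protein named for endothelial cells, at 0.45 and 0.46 RPKM in UT, then 1.23 and 1.14 for Ni-E, 1.19 and 1.48 for Ni-W and 5.05 and 4.55 for HCl3 (HCl3 against Ni-W, 1.84 ± 0.34 on the log2 scale, DESeq2 adjusted p = 2.03e-06). The summed level of the 7 endothelial markers was low but differed between groups. It was between 0.07 and 0.10 RPKM in UT, 0.06 and 0.16 for Ni-E, 0.53 and 0.59 for Ni-W and 0.51 and 0.52 for HCl3. ERG made up much of it after wash-out, at 0.30 to 0.36 RPKM in Ni-W and HCl3 against at most 0.08 in UT and Ni-E.

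Set against 23 lists of pathway, cell type and marker genes, 29 members were on at least 1 list. Over all 11511 genes at the RPKM limit, members made up 1.23%. Members made up 5 of the 19 p53 targets at the RPKM limit, 3 of the 15 mesenchymal genes, 3 of the 15 integrins and adhesion molecules, 3 of the 23 epithelial junction and keratin genes and 3 of the 33 interferon-stimulated genes. They were 2 of the 32 hypoxia-inducible genes, 2 of the 14 metallothioneins and metal transporters and 2 of the 29 matrix genes. Stress response genes (19), airway identity genes (3), cytokines (29), growth factors and their receptors (33), chromatin regulators (71) and cancer-testis and imprinted genes (5) each held 1 member, and the fibroblast list held ACTA2. Targets of NRF2, genes of WNT, Notch and TGF-beta signalling, sequence-specific transcription factors, cholesterol genes, cell cycle genes, ion channels and the immune and endothelial markers held none. At a share of 1.23%, lists of these sizes often hold 0 or 1 member, so such counts say little about a list. The p53 targets as a whole gave 9 lower of 20 in Ni-W against Ni-E by DESeq2, with a median log2 fold change of -0.51, and 6 lower in HCl3 against Ni-E. In both, 0 were higher, at the call rule, by edgeR and at an unadjusted p under 0.05. Hypoxia-inducible genes gave 9 higher and 4 lower of 34 in Ni-W against Ni-E, and 21 higher in HCl3 against Ni-E with a median of 0.73, where DESeq2 and edgeR called 0 lower and 4 were lower at an unadjusted p under 0.05. Mesenchymal genes gave 7 higher of 21 in Ni-W and 10 in HCl3 against Ni-E, with 0 lower by DESeq2, by edgeR and at an unadjusted p under 0.05. Against UT, however, their median log2 fold change was -0.23 for Ni-E, 0.72 for Ni-W and 1.08 for HCl3. Their summed level was 2047 to 2180 RPKM in UT, 1328 to 1394 in Ni-E, 1586 to 1779 in Ni-W and 2317 to 2346 in HCl3. Ni-E was thus below UT in this sum, and Ni-W did not reach UT. The counts given for each list include its members, and the shares of all tested genes that were called are those given above.

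Along the genome (hg19), chromosome 1 carried 22 members, 15.5% against 10.3% of the genes at the RPKM limit, and chromosome 16 carried 1, 0.704% against 4.43%. There were 17 pairs of neighbouring members within 1000000 bases. GAS6 (chr13:114523522-114567046), its antisense neighbour GAS6-AS2 (chr13:114567150-114569805) and TMEM255B (chr13:114462216-114514899) lay together. GAS6-AS2 was at 0.44 and 0.65 RPKM in UT, then 1.23 and 1.21 for Ni-E, 1.4 and 1.6 for Ni-W and 2.5 and 2.35 for HCl3, so that HCl3 was highest here as in GAS6. COL13A1 and H2AFY2 were 93453 bases apart, ETNK2 and KISS1 were 38162 bases apart, and the protocadherins PCDHB2 and PCDHB5 were 37824 bases apart. Another listed gene overlapped 21 members on the opposite strand and 13 on the same strand. The read-through transcripts PALM2-AKAP2 and TM4SF19-TCTEX1D2 overlap their parent genes, and their values cannot be separated from those of the parents.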

How the data were processed

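RNA-Seq libraries from BEAS-2B cells (TruSeq kit, Illumina HiSeq, 2 libraries in each of 4 groups) had been aligned to hg19 by the authors with STAR 2.4, per the submitters' processing notes, with multiply aligned reads removed. The authors counted reads per RefSeq gene with BioWardrobe and deposited, for each library, read counts and RPKM values with 2 decimals. Use of strand in the counting is not given in the sources used here. Totals of 26383920 to 45692298 reads set the precision, and intervals cover counting error only.

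Members were found from the deposited RPKM. Deposited counts of 4 libraries per comparison were tested with DESeq2 1.42.0 (Wald test, two-sided, Benjamini-Hochberg adjustment over the genes that passed its default filter). Genes were called at an adjusted p under 0.05 and at least 1.5-fold. The filter left 15989 genes in Ni-W against Ni-E, 15953 in HCl3 against Ni-E and 14956 in HCl3 against Ni-W. R 4.3.3 and Python 3.11.15 were used. The tests were also run on simulated counts of Ni-W against Ni-E, with 200 genes of at least 50 mean reads changed at least 2-fold. DESeq2 recovered 197 with 0 false calls, and edgeR 200 with 4. Each gene was given the same relative spread, and the real spread differs between genes and libraries. The simulation therefore shows that the code runs as meant and does not measure the error of the calls reported here. The study's methods call the 2 RNA samples of a group biological replicates, without saying how they were kept apart, and Ni-W comes from 1 colony, so p-values measure the spread between these samples.

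Members, gene lists and tests were chosen with earlier results of these data known. Members named in detail were the 10 farthest above UT with a mean of at least 50 reads, those with the largest differences between treated groups or the highest levels, those on a gene list, those at the limits of the rule and the study's examples. Other members were named by role after their values were seen. Alternatives were edgeR 4.0.16, other scalings, filters and limits, a replicate block, removal of GC and length trends (loess, span 0.3, longest transcript in GENCODE 44) and omission of each library. Promoters came from RefSeq (GRCh38.p14), in which 108 of 142 members matched by symbol.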

Additional observations from a re-analysis of the deposited data

Results flagged for a closer look

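In 13 of the members named in detail, the difference from UT was not the same in the 2 washed-out groups, by the direct DESeq2 test of HCl3 against Ni-W. As HCl3 minus Ni-W on the log2 scale, 5 were lower in HCl3. These were CLEC11A at -1.38, SLC47A1 at -0.95, PCDHB5 at -0.90, PDPN at -0.80 and SLC39A8 at -0.75. The other 8 were higher in HCl3. These were TGFA at 0.78, COL13A1 at 0.90, IFI44 at 0.98, LOXL1 at 1.03, ALDOC at 1.28, ANGPTL4 at 1.95, OASL at 1.98 and H19 at 2.29. The calls of CLEC11A, SLC39A8 and IFI44 were lost when some single libraries were left out. Those of TGFA and COL13A1 were lost under 7 of 11 alternatives, among them the fit of all 8 libraries together. That of ANGPTL4 was lost only in the fit of all 8 libraries. HCl3 and Ni-W also differ in their experiment numbers and may differ in colony and in time without nickel, and these cannot be told apart.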

How the results depend on the processing

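The number of members moved with the limits of the rule: 54 at 2-fold, 288 with a minimum of 10 reads in place of the RPKM limit, 50 with 1 RPKM added to each value, and 93 with GC and length trends removed, an alternative chosen after seeing the data. Leaving out 1 library gave 145 to 305, with 305 without UT replicate 1 and 228 without Ni-E replicate 1. Median-of-ratios and TMM scaling gave 127 and 125. The 66 members with all washed-out libraries above Ni-E were 67 to 76 when 1 library was left out. Members called higher in Ni-W against Ni-E were 24 to 30 when 1 library was left out (24 without Ni-W replicate 1), and those called lower were 6 to 11, with 13 without trends, 13 without a fold limit and 5 without overlapping genes. In HCl3 against Ni-E, leaving out 1 library gave 29 to 45 higher (29 without HCl3 replicate 2) and 4 to 6 lower (4 without either HCl3 library), and 2-fold gave 29 and 4. In HCl3 against Ni-W it gave 7 to 13 higher (11 without Ni-W replicate 1, 8 and 7 without HCl3 replicates 1 and 2) and 4 to 6 lower (5, 4 and 5 without the same libraries). There, 2-fold gave 6 and 1, no fold limit 28 higher, and the replicate block with trends removed 11 higher. Same-numbered libraries shared only a number, with correlations of deviations of -0.11, 0.0011 and -0.05. With a replicate block, 30 and 6, 36 and 6, and 12 and 6 members were called higher and lower in the 3 comparisons, and crossed numbers gave 32 and 7 in the first. edgeR gave 41 and 7, 50 and 8, and 18 and 8. Of 56 calls of the members named in detail, 44 held in each alternative run, 12 were lost in at least 1 and 0 changed direction. The cause of these changes was not tested. Members named only by role were not among these 56 calls. They include PGF, PCDHB2, ECSCR, KCNAB2, FSCN1, H2AFY2, CDK18 and BAI2. Their single calls were followed only under edgeR, so a call given without a loss for them was not checked further. With 2 libraries per group, a member with few reads in UT rests on counts as low as 0, as PDPN did.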
